A study of Mus musculus with 2 samples.

Results

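A set of 8499 DNase I hypersensitive sites (DHSs) on the autosomes was called in the cortex library of biological replicate 2 and in neither peak list of replicate 1. They were chosen by position from the measured calls: a call of the stricter list of replicate 2 was kept if it shared no base with any call of the stricter or the lenient list of replicate 1. They are 8499 of 45277 autosomal calls of that list (18.8%), and the list holds 46566 calls over all chromosomes. Of the other autosomal calls, 27482 overlapped a stricter call of replicate 1 by 1 bp or more and are called shared, and 9296 met only its lenient list. Not being called in replicate 1 is what defines the set and is no finding here. It is also not the same as showing no cleavage there, as the false discovery rates of replicate 1 given below show.

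DNase-seq records where the nuclease DNase I cuts chromatin; it cuts most readily where nucleosomes are displaced, at active promoters, enhancers and insulators. Inside such a site, a bound protein can shield its bases, which leaves a short stretch of few cuts called a footprint. In developing cortical neurons, basic helix-loop-helix factors of the NEUROD family bind E-box sequences, RFX and MEF2 factors bind other neural regulatory elements, and CTCF marks insulators in most tissues. Both libraries were made from left cerebral cortex of female mice of the strain B6CASTF1/J, an F1 hybrid, on day 4 after birth, with no treatment and no second genotype. The labels number the animals separately, so each replicate is 1 mouse, and whole tissue was used, so every cell type of the cortex contributes. In such bulk tissue, fewer cells with an open site and less opening per cell cannot be told apart. With 1 library on either side, nothing can be tested over animals: all tests below treat calls as the units and describe these 2 libraries.

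A first group of calls is shown for the sequence matches they hold, on the plus strand of mm10 (GRCm38), with bases inside replicate 2 footprints in capitals; none of the calls shown in this group lies within 500 bp of a replicate 1 call. The intronic call of Slit1, an axon guidance ligand, at chr19:41697481-41697760 is shown, after its values were seen, because it holds the E-box CAGATGG at bases 54 to 60 on the minus strand, wholly inside a footprint. Matches of single named calls were sought over the whole call. The Slit1 match lies outside the central 150 bp used for the shares tested below. The call in Efcab6 at chr15:83992272-83992533 is the strongest distal one with the RFX consensus GTTGCCATG (bases 68 to 76, minus strand, 7 of them in a footprint), and CAGATGG follows at bases 78 to 84 and again at 209 to 215, outside footprints. The call in Dst at chr1:33947121-33947300 is the strongest distal one with the MEF2 consensus CTANAAATA, at bases 34 to 42 on the minus strand and outside its footprints. The call in Ephb2, an ephrin receptor, at chr4:136816821-136816945 holds a paired NFI site at bases 77 to 91, all 15 of them inside its single footprint of 29 bases. The call upstream of Sox2, the pluripotency and neural progenitor factor, at chr3:34649781-34649980 lies outside annotated exons and holds an SP/KLF match (GGGGCGGGG) at bases 102 to 110 on the minus strand, all inside a footprint.
Slit1 intron: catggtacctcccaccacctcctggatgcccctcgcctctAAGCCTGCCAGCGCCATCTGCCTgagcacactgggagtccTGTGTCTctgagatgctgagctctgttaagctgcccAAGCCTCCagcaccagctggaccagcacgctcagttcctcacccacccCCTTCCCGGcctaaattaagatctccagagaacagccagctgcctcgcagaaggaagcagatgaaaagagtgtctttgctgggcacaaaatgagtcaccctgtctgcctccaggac
Efcab6 intron: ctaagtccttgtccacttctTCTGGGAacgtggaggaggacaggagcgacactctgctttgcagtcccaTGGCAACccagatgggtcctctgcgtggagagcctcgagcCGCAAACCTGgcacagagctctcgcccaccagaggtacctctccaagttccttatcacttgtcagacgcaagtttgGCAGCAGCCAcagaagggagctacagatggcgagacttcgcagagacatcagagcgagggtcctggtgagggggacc
Dst intron: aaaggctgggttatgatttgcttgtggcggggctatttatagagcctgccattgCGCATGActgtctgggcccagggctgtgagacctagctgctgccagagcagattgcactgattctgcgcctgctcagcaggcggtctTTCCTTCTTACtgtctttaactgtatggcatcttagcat
Ephb2 intron: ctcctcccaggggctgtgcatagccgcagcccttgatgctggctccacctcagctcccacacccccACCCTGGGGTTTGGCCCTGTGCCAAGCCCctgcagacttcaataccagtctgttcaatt
Sox2 upstream: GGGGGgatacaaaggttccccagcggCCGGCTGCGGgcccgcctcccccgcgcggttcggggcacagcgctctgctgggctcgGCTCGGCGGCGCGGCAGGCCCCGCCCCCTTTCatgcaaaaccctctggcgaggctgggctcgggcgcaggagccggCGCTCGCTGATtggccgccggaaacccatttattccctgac

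The 3 distal calls with the highest signal outside annotated exons, chosen by that value, come next; an exonic call nearest to Usp46 had a higher signal (4.01) than the last 2 of them. The first, at chr17:27242301-27242500, lies in an intron of an annotated non-coding gene, 37.9 kb from the nearest protein-coding transcription start site (TSS), that of Lemd2, and 37.7 kb from any replicate 1 call. The second, at chr11:98747479-98747651, lies in an intron of Thra, a thyroid hormone receptor gene, and holds the NRF1 consensus GCGCATGCG at bases 114 to 122, inside a footprint. The third, at chr1:74858461-74858720, is 3.66 kb from the TSS of Cdk5r2, an activator of a neuronal kinase, and only 20 bp from a replicate 1 call, so its place in the set rests on where the calls end.
Distal call nearest Lemd2: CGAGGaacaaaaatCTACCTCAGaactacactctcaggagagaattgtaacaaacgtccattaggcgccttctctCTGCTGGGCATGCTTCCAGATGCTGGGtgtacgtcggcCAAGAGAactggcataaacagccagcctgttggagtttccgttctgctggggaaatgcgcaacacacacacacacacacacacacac
Thra intron: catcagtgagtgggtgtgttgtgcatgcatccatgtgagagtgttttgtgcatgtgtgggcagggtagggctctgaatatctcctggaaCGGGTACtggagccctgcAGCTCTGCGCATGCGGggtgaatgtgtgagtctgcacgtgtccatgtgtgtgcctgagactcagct
Distal call nearest Cdk5r2: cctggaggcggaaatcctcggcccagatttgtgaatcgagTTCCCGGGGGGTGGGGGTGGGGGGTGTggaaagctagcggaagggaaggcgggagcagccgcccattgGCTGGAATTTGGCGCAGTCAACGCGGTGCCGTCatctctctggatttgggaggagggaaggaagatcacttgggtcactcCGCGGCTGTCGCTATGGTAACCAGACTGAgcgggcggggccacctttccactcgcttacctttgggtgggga

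The signal of a call is the tag density in the seventh column of the authors' peak lists, whose scaling is not stated. It is compared here only between calls of the same library, because equal values need not mean equal openness in the 2 libraries. Below 100 steps, 100% of the values of each library were whole multiples of 1 step within 0.05 of a step; the step was 0.00788 in replicate 2 and 0.00467 in replicate 1. If 1 step is 1 tag, which is implied and not stated, the replicate 2-only calls had a median of 93.0 tags and shared calls 294 tags. If both libraries were also scaled to a common total, the smaller step of replicate 1 corresponds to the deeper library. The cortical identity genes Emx1, Emx2, Lhx2, Tbr1, Bcl11b, Neurod6, Neurod2 and Cux2 each had a promoter call in replicate 2. In replicate 1, Bcl11b, Neurod6 and Neurod2 had no promoter call in either list. The mirror set was larger: 28434 of 58099 autosomal calls of replicate 1 (48.9%) met no call of replicate 2.

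Replicate 2-only calls were mostly weak and narrow. Their median signal was 0.733 (quartiles 0.496 and 1.02, highest 9.67), against 2.32 for shared calls and 0.985 for calls that met only the lenient list of replicate 1. Their share fell with each decile of signal, from 63.2% of replicate 2 calls in the lowest to 0.133% in the highest, where 6 of 4525 calls were in the set. Median width was 137 bp against 240 bp for shared calls, and together they covered 1.39 Mb against 7.65 Mb. The rule works on called intervals, so these values describe the set and carry no test. Because weak calls differ from strong ones in many ways, the main tests below set replicate 2-only calls against shared calls of similar signal. They use 20 strata cut at quantiles of the set, and 26376 shared calls. The top strata together span 1.39 to 9.67, and the shared median of 2.32 falls there, so signal is matched only loosely in them. Distances to a TSS, gap shares, gene list shares and runs are not matched on signal.

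**Figure D1:**
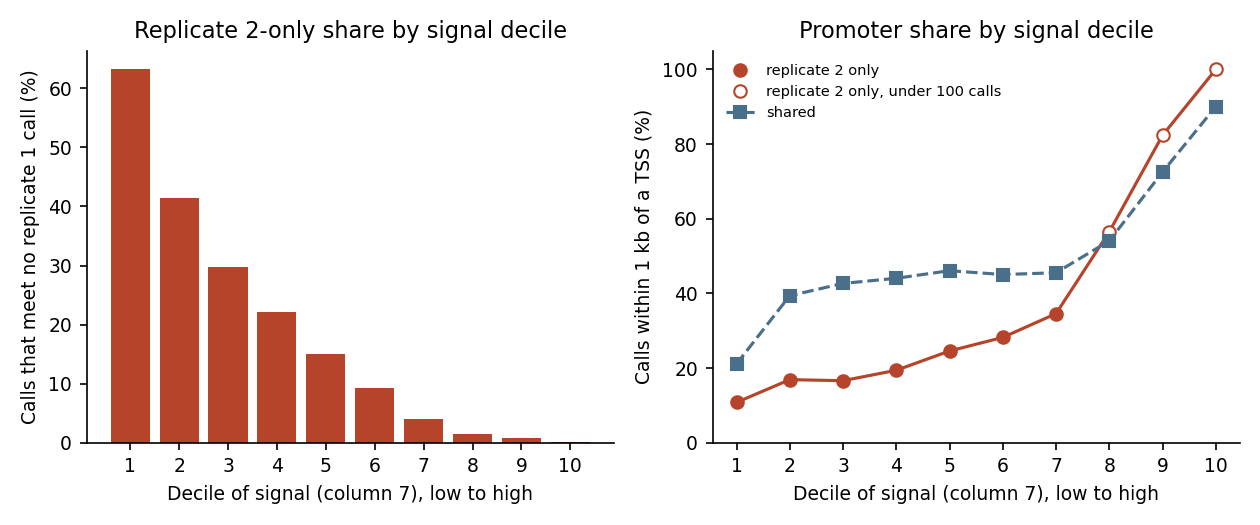
Left, the share of all autosomal replicate 2 calls in each decile of signal that met no replicate 1 call, in percent. Right, the share of calls within 1 kb of a protein-coding TSS for replicate 2-only calls (circles, open where under 100 such calls) and shared calls (squares): the set lies below the shared calls in the lower 7 deciles, at 10.8% against 21.1% in the lowest, and above them in the top 3, which hold 69, 34 and 6 calls of the set.

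At matched signal, these calls lay away from promoters and inside introns. Promoters, taken as 1 kb to either side of a protein-coding TSS, held 17.3% of them (1471 calls) against 35.9% of matched shared calls. The common odds ratio was 0.348 (95% interval 0.322 to 0.375, chi-square adjusted p = 4.57e-175), below 1 on 19 of 19 autosomes. By decile of signal the order turned in the top 3, which hold 69, 34 and 6 calls of the set, with 56.5% against 54.1%, 82.4% against 72.5% and 100% against 90% at promoters; those deciles were not tested alone. Introns of any annotated gene held 38% against 24.1% (odds ratio 2.16, 2.01 to 2.33, chi-square adjusted p = 4.59e-100, above 1 on 19 autosomes). Intergenic sequence held 31.0% against 27.3% (1.24, 1.15 to 1.34, chi-square adjusted p = 6.11e-09, 16 of 19 autosomes); with width matched too the ratio was 1.07 and missed the threshold (adjusted p = 0.0816). Other exons held 13.6% against 12.7% (1.14, 1.02 to 1.26, chi-square adjusted p = 0.0166, 11 of 19 autosomes), a difference that went to 0.896 (adjusted p = 0.0533) without the dense runs of calls described below. Median distance to the nearest TSS was 17.7 kb, against 0.557 kb for all shared calls, and 1567 calls (18.4%) were more than 100 kb from one.

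**Figure D2:**
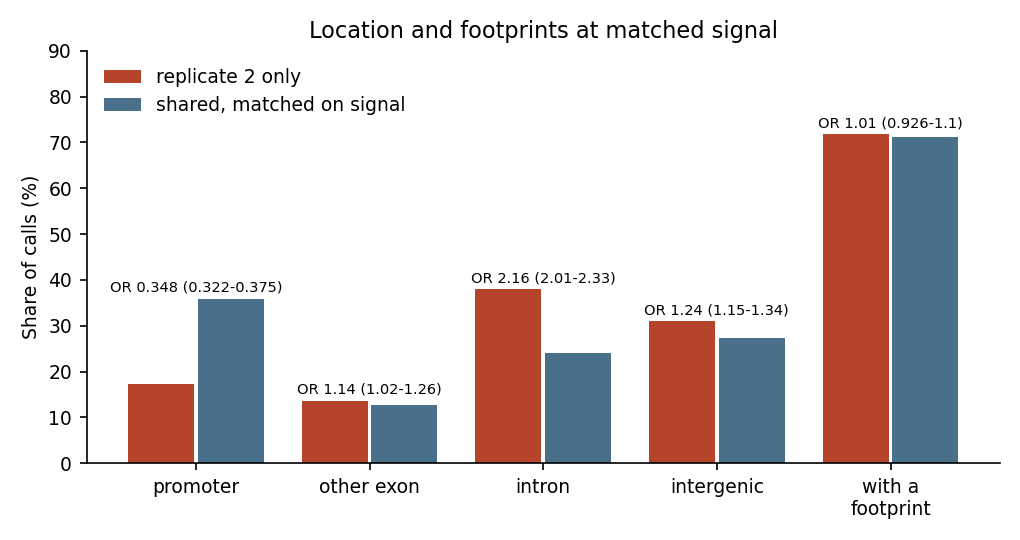
Share of calls, in percent, at each location and with a footprint, for replicate 2-only calls and for shared calls matched on signal; the numbers above the bars are common odds ratios with 95% intervals. The promoter bars are 17.3% and 35.9%, the intron bars 38% and 24.1%, and the footprint bars 71.8% and 71.1%. The order of the promoter shares and of the footprint shares differed by decile of signal.

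Most of the set stood well apart from anything called in replicate 1, and a smaller group lay at the edges of its calls. The median gap to the nearest replicate 1 call was 4320 bp. A gap of over 5 kb separated 4051 calls and a gap of over 50 kb 750 calls. In contrast, 2196 calls (25.8%) lay within 500 bp of a replicate 1 call, 905 within 100 bp, and 102 touched one without sharing a base. The shares below were not tested. Within 500 bp, 46.7% were promoter calls and 53.4% held a base of replicate 1 with a false discovery rate under 0.05; farther away these shares were 7.06% and 9.61%. Over the whole set, 1778 calls (20.9%) held such a base, 543 of them under 0.001, and 225 held a footprint of replicate 1, 224 of those within 500 bp. As the rule uses a limit of 1 bp, calls on its other side look much alike: the 317 calls of the set within 20 bp of a replicate 1 call had a median signal of 0.945 with 48.9% at promoters, and the 368 calls left out for an overlap of 1 to 20 bp had 0.922 and 42.7%.

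**Figure D3:**
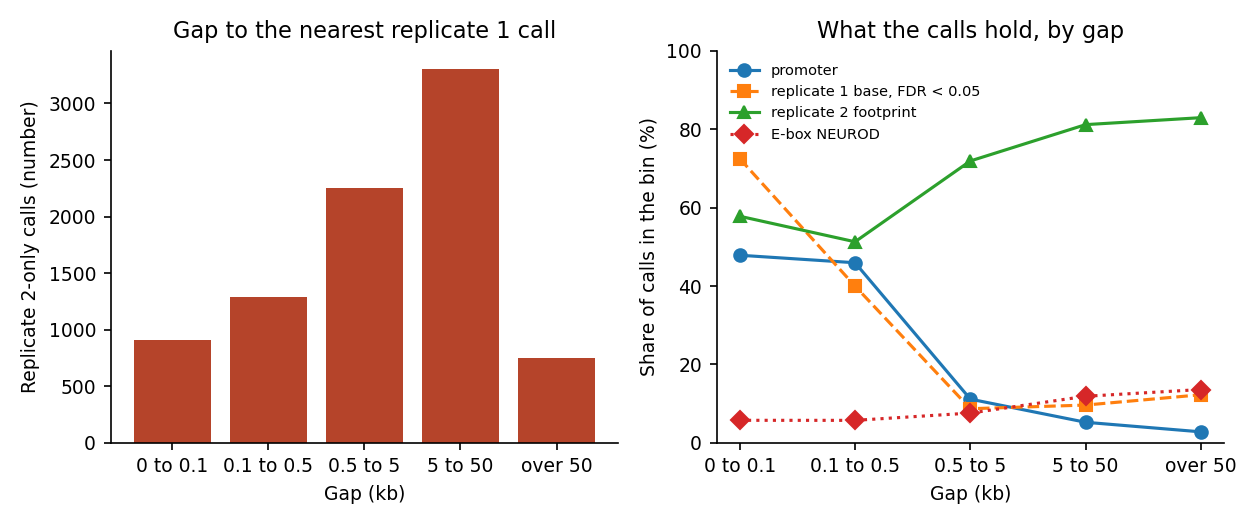
Left, the number of replicate 2-only calls by the gap to the nearest replicate 1 call in kb. Right, the share of those calls, in percent, at promoters, with a replicate 1 base under a false discovery rate (FDR) of 0.05, with a replicate 2 footprint and with CAGATGG (E-box NEUROD) in the central 150 bp: promoters fall from 47.8% in the first bin to 2.80% in the last, while CAGATGG goes from 5.75% to 13.6%.

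The strongest members belong mainly to the edge group. Of the 50 with the highest signal (3.21 and up), 46 lay within 500 bp of a replicate 1 call, 40 were promoter calls and 47 held a replicate 1 base under 0.05. The highest was at Dctn4, a dynactin subunit gene, with a signal of 9.67; it touched a replicate 1 call and held 6 footprints of replicate 1. The promoter call of Txndc9, a thioredoxin-like protein gene, had 7.55 and also touched one. Those of Arrdc3 (7.50, 60 bp away) and Tom1 (6.10, touching) were among the 10 strongest promoter calls too. For these calls the statement that replicate 1 lacks a call holds for the exact interval only.

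The 12 strongest promoter calls over 500 bp from replicate 1 were led by Atp5d, a subunit gene of mitochondrial ATP synthase, with a signal of 4.16 at a gap of 578 bp. The TSS call of Neurod2, which drives maturation of cortical excitatory neurons, had a signal of 4.02 and was 8.98 kb from any replicate 1 call. The Sox2 call printed above had 2.86 at a gap of 1.81 kb, and Celf3, an RNA-binding protein gene, had 2.36 at 5.90 kb. Plxnb2, a semaphorin receptor gene, had 2.13 and Srebf2, a regulator of cholesterol synthesis, had 2.11. The Srebf2 call, at a gap of 560 bp, held a replicate 1 base at a false discovery rate of 1.32e-07 and a replicate 1 footprint. Dand5 and Kcnj9, a potassium channel gene, both had 2.10, the latter with a MEF2 match. Ankmy1 had 2.0, Bcl11b, the deep-layer regulator also known as Ctip2, had 1.97 with 8 footprints, Ppp1r10 had 1.90 and Hoxb5 had 1.87. The Hoxb5 call also held a replicate 1 base under 0.05 (0.0384). Among distal calls over 500 bp away, the highest after those near Lemd2 and in Thra were in Hr, a nuclear receptor corepressor gene (2.92), near Znrf2 (2.90), in Slit1 (2.79) and in an exon of a non-coding gene near H2-K1 (2.79). Calls in Nfix, a nuclear factor I gene (2.74), and near Sema7a, a semaphorin gene (2.70, with CAGATGG), were among the next. Of these distal calls, those in Hr and near Lemd2, Znrf2, H2-K1 and Sema7a held a replicate 1 base under 0.05 (0.0323 to 0.0467). Those in Thra, Slit1 and Nfix held none.

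At forebrain regulators the set held whole groups of calls. Neurod2 was the nearest gene of 9 of these calls, with signals from 0.670 to 4.02 (median 1.10). Of the 9, 8 held a footprint, 3 held CAGATGG and none held a replicate 1 base under 0.05. The 9 included 2 stretches 12 to 12.4 kb and 39.6 to 41.9 kb from the TSS. Also assigned to the gene were 1 shared call and 3 calls that met only the lenient list of replicate 1. Neurod6, another bHLH gene of excitatory neurons, had 2, at 0.890 in its exon and 1.36 at its TSS, the latter at chr6:55681041-55681280 with CAGATGG. Bcl11b had 4, at 1.23, 1.47, 1.52 and 1.97, all with footprints. Cux2, a marker of upper layers, had 3, at 1.13, 1.48 and 1.53, and Emx1, a dorsal forebrain homeobox gene, had 4, at 0.449, 1.13, 1.39 and 1.58, of which 2 lay within 500 bp of a replicate 1 call. The 3 calls of Sox2 had 1.33, 1.38 and 2.86 and all lay within 1 kb of its TSS. Dlx6, a homeobox gene of inhibitory interneurons, had 5 between 0.465 and 1.64, and its relative Dlx2 had 1.67 and 1.74. All but 4 of these 32 calls were above 0.733, the median of the set. Other replicate 2 calls nearest to most of these genes did meet replicate 1. Shared calls numbered 2 at Neurod6, 2 at Bcl11b, 3 at Cux2, 1 at Emx1 and 6 at Sox2. Calls that met only the lenient list numbered 1, 1, 1, 1 and 8 in that order. Dlx6 had neither kind.

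**Figure D4:**
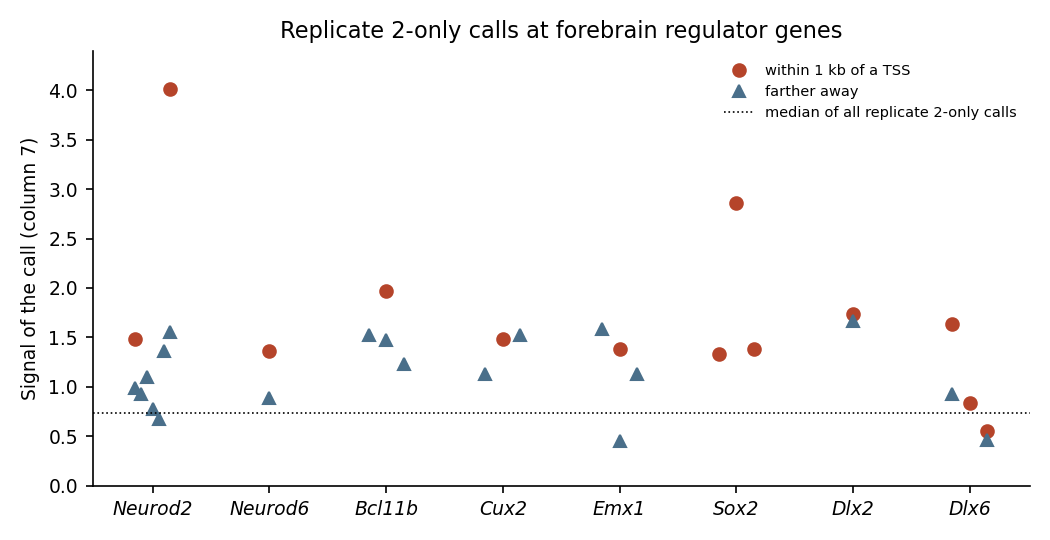
Signal (column 7) of every replicate 2-only call assigned to 8 forebrain genes; circles lie within 1 kb of a TSS and triangles farther away, and the dotted line is the median of the whole set, 0.733. The TSS call of Neurod2 at 4.02 and a Sox2 call at 2.86 stand highest.

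Of 20780 autosomal protein-coding genes, 1360 (6.54%) had a call of the set in the promoter and 176 (0.847%) had one there, no call of either replicate 1 list and no replicate 2 call that met replicate 1. These promoters can hold several calls of the set. In the second group were Neurod2 and Neurod6 among 15 glutamatergic genes, Dlx2 and Dlx6 among 20 interneuron genes, Sox2 and Tead2 among 17 progenitor genes and Bcl11b among 14 deep-layer genes. Aldoc, a glycolytic enzyme of astrocytes, had a TSS call at 1.5, 5.24 kb from replicate 1. Hoxa3, Hoxa7 and Hoxb5 of 39 Hox genes, which pattern the hindbrain and spinal cord, were there too. Hoxb5 had 1.87. The Hoxa3 and Hoxa7 promoter calls lay in the same run of 9 calls and had 0.205 to 0.756. The single promoter calls of Gpr17 (0.717), Tmem119 (0.890), Otx2 (0.630) and Klf1 (0.811), markers of oligodendrocyte precursors, microglia, choroid plexus and erythroid cells in that order, complete this group among the lists. The Gpr17 and Tmem119 calls were 38.4 and 15.4 kb from replicate 1, but those of Otx2 and Klf1 only 201 and 203 bp. The Tmem119, Otx2 and Klf1 calls held no replicate 2 footprint. None of the upper-layer, synaptic, ion channel, activity-regulated, housekeeping, cholesterol, imprinted, endothelial, myelin, subcortical, muscle, lymphocyte, hepatocyte or axon guidance genes was in it.

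By nearest TSS, 4503 genes (21.7%) had at least 1 call of the set. Gene lists are read against that share, without a set test and without matching for gene length or spacing, on which the number of nearest calls depends. Axon guidance and adhesion genes had 26 of 30, led by Epha4, Nrp2 and Plxna4 with 6 calls each. Deep-layer genes had 11 of 14, upper-layer genes 10 of 13 (Pou3f3 with 7 and Cdh13 with 6) and activity-regulated genes 13 of 17 (Egr2, Egr3 and Nr4a3 with 4 each). Of the latter, 8 had a promoter call of the set (47.1% against 6.54% of all genes), yet each of these promoters also held a replicate 1 call or a replicate 2 call that met one, and the Egr1 call (2.03) lay 102 bp from replicate 1. Subcortical and hindbrain genes had 12 of 20, with Lmx1b at 7, and oligodendrocyte precursor genes 8 of 14, with Sox6 at 7. Next were progenitor genes with 8 of 17, interneuron genes with 9 of 20, meningeal and choroid plexus genes with 7 of 16, synaptic genes with 10 of 23, glutamatergic genes with 6 of 15 and astrocyte genes with 7 of 18. Imprinted genes had 8 of 22, ion channel genes 10 of 29, myelin genes 4 of 12 and endothelial and mural genes 6 of 22 (Cdh5 with 20). Near or under the share of all genes were microglia with 4 of 18 and cholesterol synthesis with 3 of 15. Muscle had 3 of 16, Hox 5 of 39, erythroid 1 of 9, hepatocyte 1 of 15, housekeeping 1 of 16 and lymphocyte genes 0 of 15. As shares of all calls, axon guidance genes took 0.635% of the set and 0.462% of shared calls, while synaptic genes took 0.212% and 0.306%.

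Base composition differed in its parts. GC content at matched signal was 56.2% against 57.6%, a difference of -1.47 percentage points (95% interval -1.73 to -1.21, linear model with strata, n = 8499 calls, adjusted p = 6.06e-29, 19 of 19 autosomes). Among distal calls alone the sign turned, to 1.13 points higher in the set (n = 7028 calls, adjusted p = 1.88e-17), while among promoter calls alone it was -1.35 points. The observed to expected CpG ratio was 0.360 against 0.462 (difference -0.12, -0.129 to -0.111, n = 8496 calls, adjusted p = 1.74e-147) and stayed lower among distal calls (-0.0486) and among promoter calls (-0.0671). Repeats covered 9.53% of a call on average against 8.63% (difference 1.55 points, 1.05 to 2.05, n = 8499 calls, adjusted p = 1.18e-09). At matched signal the calls had a mean log2 width of 7.09 against 7.61. Narrow intervals meet the rule more easily, so this is a description with no test.

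A replicate 2 footprint lay in 6105 of the 8499 calls (71.8%), against 71.1% of matched shared calls, a difference that did not pass (odds ratio 1.01, 0.926 to 1.10, chi-square adjusted p = 0.845). That ratio averages over opposite orders. The share was higher in the set in deciles 2 to 4 of signal (82.0% against 79.5% in decile 3). It was lower in deciles 1 and 5 to 8 (85.9% against 98.0% in decile 7). In deciles 9 and 10 nearly all calls of both had one. Single deciles were not tested. Without matching on signal, shared calls had one in 93.3%. By gap the shares differed: of calls over 500 bp from replicate 1, 78.1% had a footprint (odds ratio 2.29 against shared calls, 2.05 to 2.57, chi-square adjusted p = 1.16e-49), while of calls within 500 bp 54.0% did. Promoter calls of the set had a footprint in 52.5%, below the 65.7% of matched shared promoter calls (odds ratio 0.489, chi-square adjusted p = 9.38e-26). Distal calls had 75.9% against 76.8% (0.893, chi-square adjusted p = 0.0690). Footprints per kb of call were 10.5 against 9.02 (difference 1.09, 0.811 to 1.37, n = 8499 calls, adjusted p = 5.24e-14, 11 of 19 autosomes), but with width matched the difference was -0.209 (adjusted p = 0.143).

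Of 32 consensus sequences searched on both strands in the central 150 bp, 6 were found in a larger share of the set than of matched shared calls and 3 in a smaller share at an adjusted p under 0.05 (Cochran-Mantel-Haenszel test). The best supported was CAGATGG, an E-box bound by NEUROD factors: 791 calls held it (9.31%), against 4.63% of matched shared calls and 5.49% of all replicate 2 calls. Its odds ratio was 2.44 (2.14 to 2.78, chi-square adjusted p = 2.07e-43), above 1 on 19 of 19 autosomes. The RFX consensus GTTGCCATG was in 1.21% against 0.344% (103 calls, odds ratio 3.34, 2.35 to 4.74, chi-square adjusted p = 8.95e-12; 0.963% of all calls). The MEF2 consensus CTANAAATA was in 0.706% against 0.353% (60 calls, 2.54, 1.61 to 4.00, chi-square adjusted p = 0.000108; 0.426% of all calls). The AP-1 consensus TGACTCA, bound by Fos and Jun proteins, was in 2.91% against 1.75% (247 calls, 1.66, 1.34 to 2.07, chi-square adjusted p = 1.85e-05; 2.01% of all calls). The other 2 were E-boxes, CAGCTG in 18% against 13.1% (1.56, chi-square adjusted p = 1.06e-21) and CACGTG in 3.91% against 3.13% (1.36, adjusted p = 0.000954), present in 13.2% and 4.67% of all calls. All 6 also passed with GC content matched and among distal calls alone, where CAGATGG had odds ratios of 2.24 and 2.05. The highest odds ratio, 6.97 for the paired NFI site, rests on 7 calls of the set and 4 shared ones and did not pass (chi-square adjusted p = 0.135); it passed among calls over 500 bp from replicate 1 (14.9, chi-square adjusted p = 0.0250).

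The 3 sequences found less often were those of CTCF, ETS and SP/KLF factors. All 3 were also less frequent in the mirror set of replicate 1-only calls against its matched shared calls. The odds ratios there were 0.184, 0.253 and 0.521, from strata with as few as 1 shared call. Several other results of the set did not recur there. CAGATGG, RFX and CAGCTG had odds ratios of 0.757, 0.309 and 0.804, promoters 1.71, introns 0.791 and intergenic sequence 0.664. AP-1, MEF2 and CACGTG did not pass. For CAGATGG, RFX, promoters and intergenic sequence the matched shares ran opposite to the odds ratio (promoters 8.76% against 9.68%), so no direction is drawn for them. The CTCF consensus was in 165 calls of the set, 1.94% against 4.86% of matched shared calls and 6.45% of all calls (odds ratio 0.327, 0.270 to 0.396, chi-square adjusted p = 3.59e-30, below 1 on 19 of 19 autosomes). Among distal calls it was 2.29% against 8.11% (0.213, chi-square adjusted p = 2.37e-58). The ETS consensus CCGGAAGT was in 0.212% against 0.443% (0.286, chi-square adjusted p = 0.000689; 1.82% of all calls) and did not pass among distal calls (adjusted p = 0.488). The SP/KLF consensus GGGGCGGGG was in 1.93% against 2.62% (0.677, chi-square adjusted p = 0.000605; 6.03% of all calls), but did not pass once GC content was matched (odds ratio 0.917, adjusted p = 0.618). ZBTB33 (TCTCGCGAG) and CEBP (TTGCGCAA) had odds ratios of 0.239 and 0.317 from 1 and 2 calls of the set and did not pass. A match is a string of letters, not a bound protein. In the set, the matched letters overlapped a footprint for 143 of 165 calls with CTCF (86.7%), 60 of 103 with RFX (58.3%), 254 of 791 with CAGATGG (32.1%), 36 of 247 with AP-1 (14.6%) and 7 of 60 with MEF2 (11.7%). In shared calls, which are stronger and not matched here, these shares were 99.4%, 77.6%, 51.0%, 21.4% and 37.2%.

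**Figure D5:**
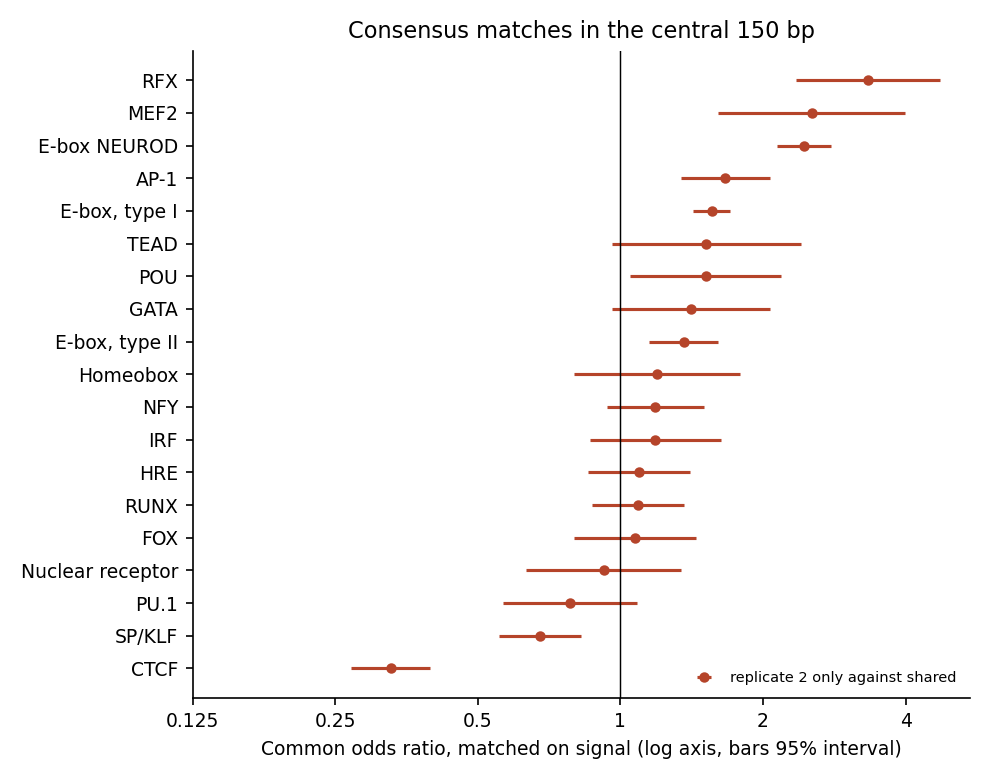
Common odds ratios with 95% intervals, on a log axis, for the consensus sequences found in 50 or more replicate 2-only calls, comparing replicate 2-only with shared calls at matched signal. The E-box of type I stands for CAGCTG and that of type II for CACGTG, names used in this plot only. CAGATGG (E-box NEUROD) is at 2.44 and CTCF at 0.327.

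Part of the set lay in dense runs, a grouping chosen after seeing the data: 5 or more of the calls with gaps of at most 5 kb. There were 177 such runs with 1583 calls (18.6%), and 109 runs held no replicate 1 call. Calls in runs were weaker than the rest (median signal 0.370 against 0.803), more often exonic (31.5% against 9.57%), and less often footprinted (52.9% against 76.2%). By the same rule 78.8% of replicate 1-only calls and 6.37% of shared calls lay in runs. The largest run held 53 calls over 43.6 kb at chr8:70716636-70760240, across Pde4c, a cAMP phosphodiesterase gene, and Rab3a, a synaptic vesicle GTPase gene; replicate 1 had 3 calls there. Pde4c was the nearest gene of 32 of them, with signals from 0.126 to 1.32, and had no shared call. A run of 28 calls at Slc6a16, a transporter gene, at chr7:45252911-45269840 held no replicate 1 call and had signals of 0.0709 to 0.473. Runs of 25 calls lay at Hr and Nudt18 and in Clip2, nearest to the TSS of Gtf2ird1. Others had 24 at Lgals3bp, where the calls covered 68.8% of 11.3 kb, and 23 each at Gzmm to Cdc34, at Flii and Llgl1, and at Rsph1. Trappc9 (29 calls), Nfic (26), Dlk1 (25, an imprinted gene), Lemd2 (23), Wnt7a (21) and Sox13 (19) were also among the 15 genes nearest to the most calls. For each of the 15 most of those calls lay in runs, with the smallest share at Cdh5 (11 of 20). Unlike Pde4c, several were also nearest to shared calls. These numbered 19 at Trappc9, 13 at Nfic, 4 at Dlk1, 2 at Lemd2, 13 at Wnt7a, 2 at Sox13 and 27 at Cdh5. Over the autosomes, the set took 14.8% (chromosome 16) to 22.9% (chromosome 15) of replicate 2 calls.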

How the data were processed

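DNase-seq was analysed from 2 libraries of postnatal left cerebral cortex, 1 mouse each. Coordinates are mm10, per the file headers, with separate files for each library. Which aligner and peak caller were run, and how, is not given in the sources used here. Column 7 of the authors' peak lists is a signal value per call, and a deposited cut-rate track holds q-values (false discovery rates) for base intervals below 0.05. Footprint tables from the authors carry 0.01 on every line, taken as a threshold p-value or q-value and not used as a measurement. Every replicate 2-only call held a replicate 2 base under 0.001.

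Genes were those of GENCODE M21 (basic); sequence and soft-masked repeats came from GRCm38. Each call was assigned to a promoter, then exon, intron or intergenic sequence. Shares were compared by the Cochran-Mantel-Haenszel chi-square test and other values by a linear model with robust errors. Both used 20 strata of signal, were two-sided and Benjamini-Hochberg adjusted within families of 4 locations, 4 sequence properties, 2 footprint measures and 32 consensus sequences. Calls are not biological replicates, p-values describe the spread between calls of these libraries, and intervals cover counting error only. Some calls of the stricter list overlap each other (2748, of which 267 in the set). Both tests were checked on simulated data. Named were the 15 genes with most calls, the 10 strongest promoter and distal calls, 2 genes per list, 15 fixed genes and the 5 highest and 3 lowest consensus sequences; the 12 strongest promoter and 15 strongest distal calls over 500 bp from replicate 1, promoter calls of list genes, CTCF and the other sequences that passed were chosen after their values were seen. Some genes that this rule names are not reported here. The set and the lists were chosen with earlier results of these data known. Alternatives were other matching, overlap, promoter, window and strength rules; leaving out runs and leaving out calls with a replicate 1 base under 0.05 were added after seeing the data. Tools were Python 3.11.15, NumPy 2.4.6, pandas 2.3.3, SciPy 1.17.1, pysam 0.24.0, samtools 1.23.1 and matplotlib 3.10.9.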

Additional observations from a re-analysis of the deposited data

Results flagged for a closer look

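The sex chromosomes lie outside the set and were looked at separately, which brought up calls in data not used by the comparisons. On chromosome X, 207 of 1254 stricter calls of replicate 2 (16.5%) met no call of replicate 1. On chromosome Y, 6 of 35 (17.1%) met none, although the labels give both animals as female; what these intervals stand for was not tested.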

How the results depend on the processing

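No paired analysis was possible because the rule compares a single library with a single library of 1 group, and for the same reason neither replicate can be left out. Under the alternatives, the promoter, intron, CpG and repeat differences kept their direction and passed in each one run. Without matching, the odds ratio of a footprint was 0.183, the footprint density difference was -4.88 per kb, and 15 consensus sequences were higher and 12 lower. With width matched too, the intergenic odds ratio was 1.07 and the footprint density difference -0.209. The footprint odds ratio was 2.29 for calls with no replicate 1 call within 500 bp, 1.21 for calls absent from the stricter list only, 1.56 without calls holding a replicate 1 base under 0.05, 0.957 with shared calls at least 50% covered, 0.893 for distal calls, 0.489 for promoter calls and 0.917 with footprints wholly inside the call. For calls at or above the median signal of 1.46 it was 0.473, with a footprint density difference of -0.600, an intergenic odds ratio of 1.02, an exon odds ratio of 1.01 and 1 lower consensus sequence. The footprint density difference was -0.816 for promoter calls. Distal calls had a GC difference of 1.13 and 1 lower consensus sequence. Lower sequences numbered 6 for calls absent from the stricter list only and 9 over whole calls. Without runs the exon odds ratio was 0.896. The cause of these changes was not tested. Among single sequences AP-1 (1.17), MEF2 (2.32) and ETS (0.417) no longer passed among calls at or above the median signal, whereas CAGATGG and RFX passed in each alternative run, at odds ratios of 1.78 to 2.90 and 1.63 to 4.06. NFI passed without matching (5.66), over 500 bp from replicate 1 (14.9) and for calls absent from the stricter list only (9.32); ZBTB33 passed without matching (0.0223) and for calls absent from the stricter list only (0.107), and CEBP without matching (0.179) and over whole calls (0.0575). Tag depth is not stated, and its part in which calls replicate 1 lacks was not tested.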
